A study of Saccharomyces cerevisiae with 4 samples.

Results

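The small nucleolar RNAs (snoRNAs) of budding yeast were followed through 30 min of transcription inhibition. They were taken as the 76 genes, of 7071 in the deposited tables, whose identifier starts with snR, with the spliceosomal snR6, snR7-L, snR7-S, snR14 and snR19 left out. By the R64 annotation and the known box elements, 47 of them are C/D snoRNAs and 29 are H/ACA snoRNAs. By origin, 50 have a transcription unit of their own, 17 lie in 5 polycistronic arrays, 8 are encoded in introns and snR52 is an RNA polymerase III transcript.

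snoRNAs work in the nucleolus as ribonucleoproteins. A C/D snoRNA base pairs with ribosomal RNA so that the methyltransferase Nop1 modifies the nucleotide lying at a fixed distance from its D box, and an H/ACA snoRNA positions a uridine for the pseudouridine synthase Cbf5. A few snoRNAs, among them U3, U14, snR30 and snR10, are needed for the cleavages that release 18S rRNA from its precursor. Most are cut out of longer precursors by the endonuclease Rnt1 and by exonucleases, are bound and protected by the core proteins, and are long-lived RNAs.

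All 4 libraries came from wild-type (WT) cells of strain CB67, of W303 origin, which had been arrested in G2/M by benomyl at 80 µg/ml for 90 min. The 2 DMSO libraries (a and b) are the controls and the 2 thiolutin libraries (a and b) come from cells given thiolutin, an inhibitor of the yeast RNA polymerases, at 20 µg/ml for 30 min. A pellet of fission yeast (S. pombe) cells was added to each pellet before RNA extraction, large ribosomal RNA was depleted, and total RNA was sequenced from stranded libraries. The labels name the replicates only by letter, so that p-values measure the spread between these libraries, and both groups carry the arrest.

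Expected counts, the read numbers that RSEM estimates for each gene, summed to 11598766 in thiolutin b and to 27262771, 38613462 and 48045781 in DMSO a, thiolutin a and DMSO b. snoRNAs took 3.62 to 4.20% of these counts, and ribosomal RNA genes 80.8 to 86.6%. Among the counts outside ribosomal RNA genes, the snoRNA share was 21.8 and 20.6% in DMSO a and b and 29.1 and 24.2% in thiolutin a and b. Each thiolutin library was above each DMSO library.

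Changes were read on 2 scales. The relative scale, with TMM factors, places the typical gene at 0. The spike-in scale gives normalised counts, that is expected counts per 1000000 S. pombe reads, and keeps a change shared by all genes. The median log2 fold change over the 5527 genes tested was -0.02 on the relative scale and -1.01 per spike-in read. The shift between the scales was not the same for every gene. For snR17a the values were 0.93 and -0.06, and for snR67 they were -0.81 and -2.02. At least 62.2 to 74.1% of the reads assigned to S. pombe in a library were also counted for S. cerevisiae genes, so that the spike-in scale rests in large part on reads that match both species. A lower level on it does not tell less RNA per cell from fewer cells in the pellet.

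The sequences on which the results turn are given here from the RefSeq R64 reference genome, 5′ to 3′ and as DNA, and the sequence of the W303 cells themselves was not read. They are the Pol III snoRNA snR52 with the stretch before it, the C/D snoRNAs that fell (snR47, snR67, snR71) or were not called lower (snR50, snR41), the pair snR39 and snR59 that share a target, and, as examples of the H/ACA class, snR10 and the intron-encoded snR191. In C/D snoRNAs the capitals mark the stretch that pairs with ribosomal RNA around an annotated methylation site and the D or D′ box after it. In H/ACA snoRNAs they mark the ACA box, and in the stretch before snR52 the match to the Pol III box B consensus GTTCGANNC. Searched on both strands of the 120 bases before each gene, these letters stood before snR52 alone of the 76 snoRNAs and before 25 of 6021 protein-coding genes, or 0.415%.
before snR52 (chrV:431221-431340, minus strand): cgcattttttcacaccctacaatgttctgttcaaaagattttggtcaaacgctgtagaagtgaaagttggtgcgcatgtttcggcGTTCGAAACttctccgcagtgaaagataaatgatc
snR52 (chrV:431129-431220, minus strand): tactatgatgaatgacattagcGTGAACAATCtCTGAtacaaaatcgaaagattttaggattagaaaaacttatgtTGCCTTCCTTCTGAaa
snR47 (chrIV:541602-541700, minus strand): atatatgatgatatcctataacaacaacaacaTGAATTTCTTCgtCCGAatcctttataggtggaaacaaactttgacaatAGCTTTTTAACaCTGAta
snR67 (chrV:61352-61433, plus strand): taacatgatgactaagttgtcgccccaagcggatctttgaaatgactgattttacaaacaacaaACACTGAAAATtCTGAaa
snR71 (chrVIII:411228-411317, plus strand): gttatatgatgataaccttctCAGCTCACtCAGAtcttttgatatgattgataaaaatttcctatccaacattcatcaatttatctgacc
snR50 (chrXV:259489-259578, plus strand): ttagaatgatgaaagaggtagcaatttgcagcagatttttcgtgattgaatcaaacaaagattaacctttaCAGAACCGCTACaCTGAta
snR41 (chrXVI:719148-719242, minus strand): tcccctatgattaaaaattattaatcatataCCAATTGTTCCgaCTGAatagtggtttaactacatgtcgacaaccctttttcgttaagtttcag
snR39 (chrVII:365163-365251, minus strand): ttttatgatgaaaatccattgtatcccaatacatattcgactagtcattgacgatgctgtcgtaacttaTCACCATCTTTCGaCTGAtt
snR59 (chrXVI:173827-173904, plus strand): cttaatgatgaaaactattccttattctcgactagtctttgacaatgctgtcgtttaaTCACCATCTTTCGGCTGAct
snR10 (chrVII:345986-346230, plus strand): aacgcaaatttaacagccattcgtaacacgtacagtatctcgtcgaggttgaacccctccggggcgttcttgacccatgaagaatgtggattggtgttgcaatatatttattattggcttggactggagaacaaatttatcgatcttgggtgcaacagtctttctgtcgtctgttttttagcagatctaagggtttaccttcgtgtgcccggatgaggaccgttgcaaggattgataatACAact
snR191 (chrXIV:721938-722211, minus strand): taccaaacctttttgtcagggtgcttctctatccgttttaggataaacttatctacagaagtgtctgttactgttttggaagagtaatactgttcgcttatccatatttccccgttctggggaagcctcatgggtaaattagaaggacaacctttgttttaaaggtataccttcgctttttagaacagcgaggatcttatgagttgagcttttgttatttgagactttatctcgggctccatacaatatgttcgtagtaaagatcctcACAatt

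The guide stretches were found by the rule that the 5th base before a D or D′ box (CTGA with at least 3 of its 4 letters) faces the methylated nucleotide, with at least 8 unbroken Watson-Crick pairs around it. This held for 37 of the 55 methylation sites annotated for 43 C/D snoRNAs, with up to 16 pairs. In snR52 the stretch tgccttcctt pairs with 18S rRNA around A420 and gtgaacaatc pairs with 25S rRNA around U2921. In snR47 tgaatttcttc faces A2220 of 25S and agctttttaac faces A619 of 18S. snR39 and snR59, from the introns of the paralogs RPL7A and RPL7B, both face A807 of 25S, and tcaccatctttcg stands in both. Among H/ACA snoRNAs, 14 of 29 had the letters ACA exactly 3 bases before the annotated end.

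Relative to the typical gene, 39 snoRNAs rose in thiolutin-treated cells. Of the 70 members that passed the filter on low counts, 39 were called higher and 2 were called lower (edgeR's quasi-likelihood test, Benjamini-Hochberg adjusted p below 0.05), where 18.5% of all tested genes were higher and 17.6% lower, and 29 were not called. Without DMSO a 4 were higher and without DMSO b 9. The median log2 fold change of the members was 0.86, beside -0.04 for 5270 protein-coding genes. At the study's threshold of 1e-05, 0 members passed, beside 0.796% of all genes higher and 0.199% lower. At an unadjusted p under 0.05 (edgeR), 42 of the 70 members were higher and 3 lower, where 1274 and 1261 of all 5527 genes were. Both thiolutin libraries lay above both DMSO libraries for 42 members and below them for 8, where this held for 33.2% and 36.7% of all genes. The members not tested were snR38, snR53, snR54, snR59, snR74 and snR79, each with at most 17 counts in any library.

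Per spike-in read, most snoRNAs stayed near the DMSO level while most mRNAs were lower. No member was higher (0 of 70 in edgeR, 0 at an unadjusted p under 0.05, and 0 in the likelihood ratio test), and 14 were lower, where 1.47% of all tested genes were higher and 50.7% lower. The 14 calls were lost without DMSO a or DMSO b (0 each), and with the replicate letter as a block 5 members were lower. The median over the members was -0.17, and the medians of the letter pairs were -0.32 (a) and 0.04 (b). For protein-coding genes the median was -1.04, and those of the letter pairs were -1.40 (a) and -0.65 (b). For 25 of the 70 members both thiolutin libraries lay below both DMSO libraries, where this held for 75.7% of all genes, and for 0 members they lay above, beside 2.48%. At 1e-05 the counts were 0 and 0, where 0.489% of all genes were higher and 6.08% lower.

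**Figure D1:**
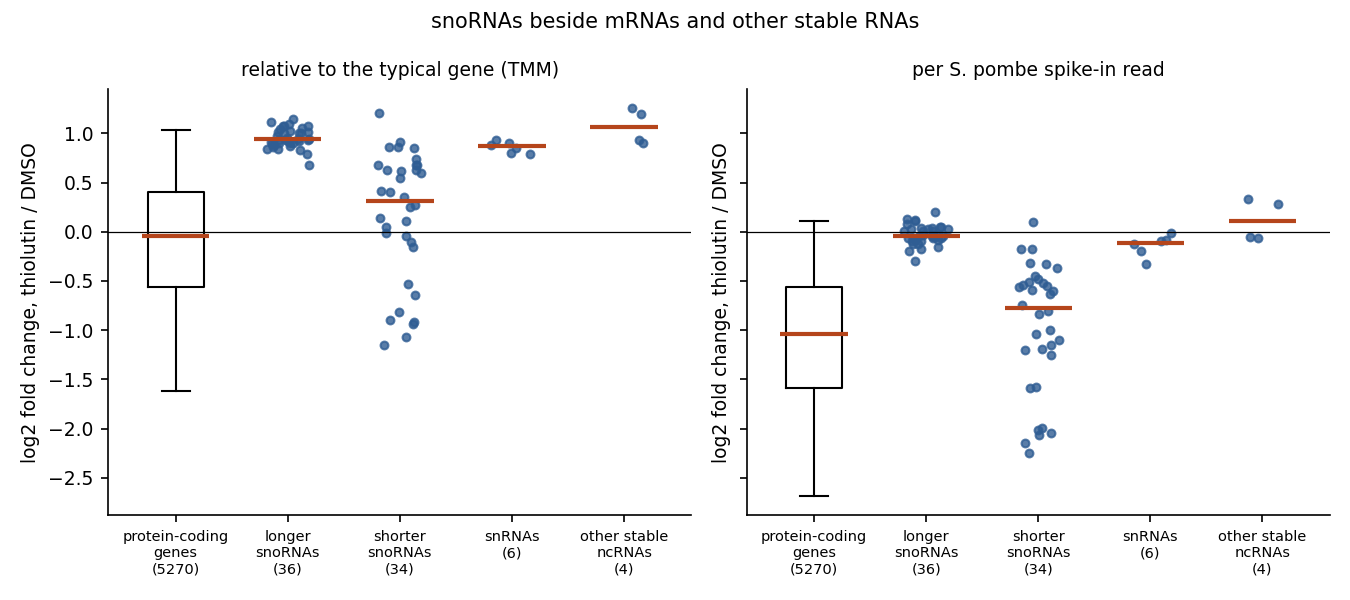
log2 fold changes (thiolutin over DMSO) on the relative scale (left) and per spike-in read (right), with the number of genes below each class. Points are genes, red lines are medians, and protein-coding genes are drawn as a box of the middle quartiles with whiskers at the 5th and 95th percentiles. The snoRNAs of 161 to 1004 nt lie close together, with medians of 0.94 and -0.04, and those of 78 to 136 nt spread widely, with medians of 0.32 and -0.77.

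The members fell into 2 groups by length. No snoRNA is between 137 and 160 nt, and the division at 150 nt was made after the values were seen. All 36 longer snoRNAs (29 H/ACA and 7 C/D) were higher on the relative scale, by 0.68 (snR81) to 1.15 (snR86) in log2, and 0 of the 36 were called per spike-in read in either direction (edgeR, 0 at an unadjusted p under 0.05, and 0 by the likelihood ratio test). The relative calls of the 36 came down to 4 without DMSO a and to 5 without DMSO b and per spike-in read 5 were lower without thiolutin b and 2 higher without thiolutin a. Of the 34 shorter snoRNAs tested, all C/D, 3 were higher and 2 lower on the relative scale, where all genes gave 18.5% and 17.6%. Without thiolutin b 15 were higher, and without DMSO a or thiolutin a 0. Per spike-in read 14 of the 34 were lower and 0 higher, where all genes gave 50.7% and 1.47%. Short RNAs were scarce in thiolutin b, whose summed shorter snoRNAs were at 9.38 per 1000 longer counts beside 16.0 to 19.7 in the other libraries, and the part of this in the calls was not tested. Across the 70 tested members, which share the same 4 libraries, Spearman's rho between length and log2 fold change per spike-in read was 0.79. It was 0.04 within the longer and 0.52 within the shorter group.

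**Figure D2:**
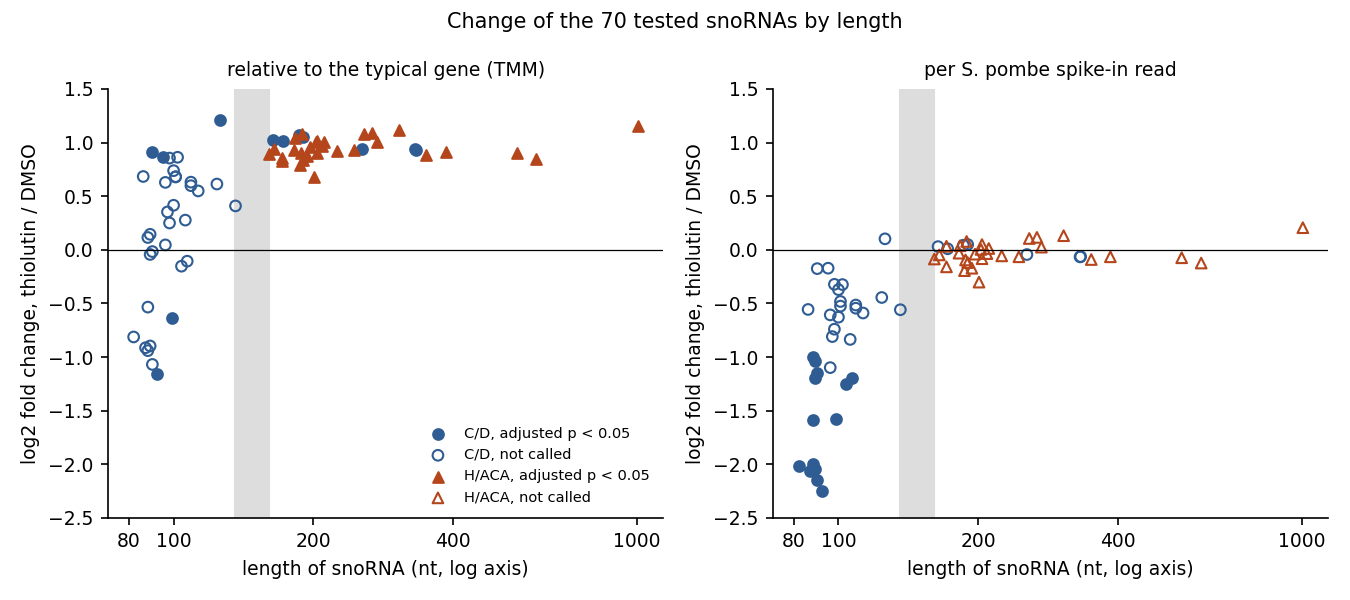
log2 fold change (thiolutin over DMSO) of the 70 tested snoRNAs against length in nt on a log axis, relative to the typical gene (left) and per spike-in read (right). Circles are C/D and triangles H/ACA snoRNAs, filled where the adjusted p was under 0.05 (edgeR), and the grey band marks the lengths with no snoRNA. Per spike-in read the longer members lie between -0.30 and 0.21, and the shorter reach down to -2.25.

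Box class and length are bound together, since every H/ACA snoRNA is long. The 7 longer C/D snoRNAs, snR4, snR45, snR63, snR70, snR190 and the U3 genes, had log2 fold changes per spike-in read of -0.07 to 0.05, and H/ACA snoRNAs had -0.30 to 0.21. The median of the longer C/D members was 0.01 and that of the H/ACA members -0.05, beside -0.77 for the shorter C/D members. All 7 lay within the range of the H/ACA members, as did the shorter snR128, snR41 and snR50, and the difference between the classes was not tested.

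The snoRNAs needed for pre-rRNA cleavage were measured deeply, and their libraries overlapped between the groups per spike-in read. U3, which pairs with the precursor and is needed for the early cleavages, is made from snR17a and snR17b. snR17a was at 37536 and 29366 normalised counts in DMSO a and b and at 29083 and 34950 in thiolutin a and b, so that the groups overlapped. Its log2 fold change was -0.06 ± 0.23 (SE, adjusted p = 0.815, edgeR) per spike-in read and 0.93 ± 0.25 (adjusted p = 0.0138, edgeR) on the relative scale. snR17b was at 10755, 9047, 8907 and 10009 in the same order, which again overlapped, with -0.07 ± 0.27 (adjusted p = 0.840, edgeR). The 2 genes share a run of 77 identical bases in R64, so that part of their reads was divided by the counting, and their sum was 27.3 to 28.9% of all snoRNA counts in each library.

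snR30, an H/ACA snoRNA needed for 18S rRNA, was at 14449 and 10839 normalised counts in DMSO and at 9613 and 13600 in thiolutin. snR10, which also guides a pseudouridine in 25S rRNA, was at 6719 and 5798 in DMSO and at 5445 and 6520 in thiolutin. Both overlapped between the groups, with log2 fold changes of -0.12 ± 0.26 (SE, adjusted p = 0.693, edgeR) and -0.07 ± 0.29 (adjusted p = 0.853, edgeR). On the relative scale both were higher, by 0.84 and 0.93.

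U14 (snR128, 126 nt) is the cleavage snoRNA of the shorter group, and it varied more. It stood at 429 and 573 normalised counts in DMSO and at 693 and 381 in thiolutin a and b, so that the 2 thiolutin libraries enclosed both DMSO libraries. The log2 fold change per spike-in read was 0.10 ± 0.39 (SE, adjusted p = 0.826, edgeR). On the relative scale it was 1.21 ± 0.37 (adjusted p = 0.0265, edgeR), the highest of all tested members, and it was 0.24 (adjusted p = 0.153) without thiolutin a and 0.97 (adjusted p = 0.0984) without DMSO a. Per spike-in read it was called higher without thiolutin b, at 0.47 (adjusted p = 0.00836).

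By mean TPM, which allows for length, the most abundant members were snR17a (4430), snR190 (2919), snR17b (1315), snR37 (1277) and snR10 (1232). snR190 guides methylation of 25S rRNA and snR37 a pseudouridine there. snR190 was at 10945 and 8852 normalised counts in DMSO and at 9624 and 10860 in thiolutin. snR37 was at 12331 and 10787 in DMSO and at 9706 and 12390 in thiolutin. Neither separated the groups on this scale, with log2 fold changes of 0.05 and -0.07. TPM of the shortest members rests on an effective length 64.5 nt below their own, which leaves few positions.

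The highest log2 fold changes per spike-in read were those of snR86 (0.21 ± 0.30 SE), snR83 (0.13 ± 0.31), snR82 (0.12 ± 0.38), snR11 (0.11 ± 0.29) and snR128. The first 4 are H/ACA guides, snR83 for 18S and the others for 25S rRNA. snR86, at 1004 nt the longest member, had 4671 and 4269 normalised counts in DMSO and 4003 and 6313 in thiolutin. Its thiolutin libraries lay on either side of both DMSO libraries, and adjusted p was 0.559 (edgeR). None of the 5 was called on this scale, and all were higher on the relative scale, snR86 by 1.15 ± 0.19 (adjusted p = 0.00101, edgeR).

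The lowest was snR52, a guide for both 18S and 25S rRNA, before which the box B letters shown above stand. It had 599 and 798 counts in DMSO a and b and 177 and 43 in thiolutin a and b. As normalised counts these were 87.3, 64.7, 15.9 and 16.0, with both thiolutin libraries far below both DMSO libraries. snR52 fell by 2.25 on the log2 scale (SE 0.46, adjusted p = 1.2e-05, edgeR), which is 4.76-fold lower, and by 1.16 (SE 0.21, adjusted p = 0.00172, edgeR) relative to the typical gene. Against the summed counts of the longer snoRNAs, a ratio within each library that needs no spike-in, it was 0.531 and 0.468 per 1000 in DMSO and 0.120 and 0.0984 in thiolutin. The relative call held without any single library, and the call per spike-in read was lost without DMSO a (adjusted p = 0.190) or DMSO b (adjusted p = 0.0876), with log2 fold changes of -2.02 and -2.45.

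snR47, which also guides methylation in both 18S and 25S rRNA, was the other member lower on both scales. It was at 47.9 and 58.8 normalised counts in DMSO and at 13.5 and 23.1 in thiolutin. The groups did not overlap, and it fell by 1.58 (SE 0.45, adjusted p = 0.00178, edgeR) per spike-in read and by 0.64 (SE 0.19, adjusted p = 0.0213, edgeR) relative to the typical gene. Without DMSO a or DMSO b the adjusted p was 0.281 and 0.329 per spike-in read and 0.0537 and 0.377 on the relative scale, while the log2 fold changes stayed negative.

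Next to snR52, the lowest values per spike-in read were those of snR71, snR78, snR75 and snR67, guides for 25S rRNA. snR67 was at 25.6 and 18.6 normalised counts in DMSO and at 6.46 and 3.72 in thiolutin, and fell by 2.02 (SE 0.44, adjusted p = 4.34e-05, edgeR). The other 3 rest on few reads. snR71 had 31 and 33 counts in DMSO and 6 and 4 in thiolutin, and fell by 2.15 (SE 0.65, adjusted p = 0.00342, edgeR). snR75 had 38 and 78 counts in DMSO and 19 and 2 in thiolutin, and fell by 2.05. snR78 had 15 and 18 counts in DMSO and 6 and 0 in thiolutin, and fell by 2.07 (SE 0.77, adjusted p = 0.0175, edgeR). On the relative scale none of these 4 passed the test, with adjusted p between 0.0658 (snR67) and 0.383 (snR78).

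The other members called lower per spike-in read were snR57 and snR56, guides for 18S rRNA, 3.99-fold and 3.00-fold lower, and then snR60 (-1.25), snR51 (-1.20), snR39 (-1.19), snR61 (-1.15), snR24 (-1.04) and snR77, which went from 64.1 and 72.9 normalised counts in DMSO to 38.9 and 29.0 in thiolutin. In all 14 both thiolutin libraries lay below both DMSO libraries, which held for 75.7% of all genes tested. The 14 were picked from these same libraries, so that this adds no support. Of the 14, 7 had fewer than 10 counts in thiolutin b. Of the 12 other than snR52 and snR47, none was called relative to the typical gene, whose own level was lower per spike-in read.

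**Figure D3:**
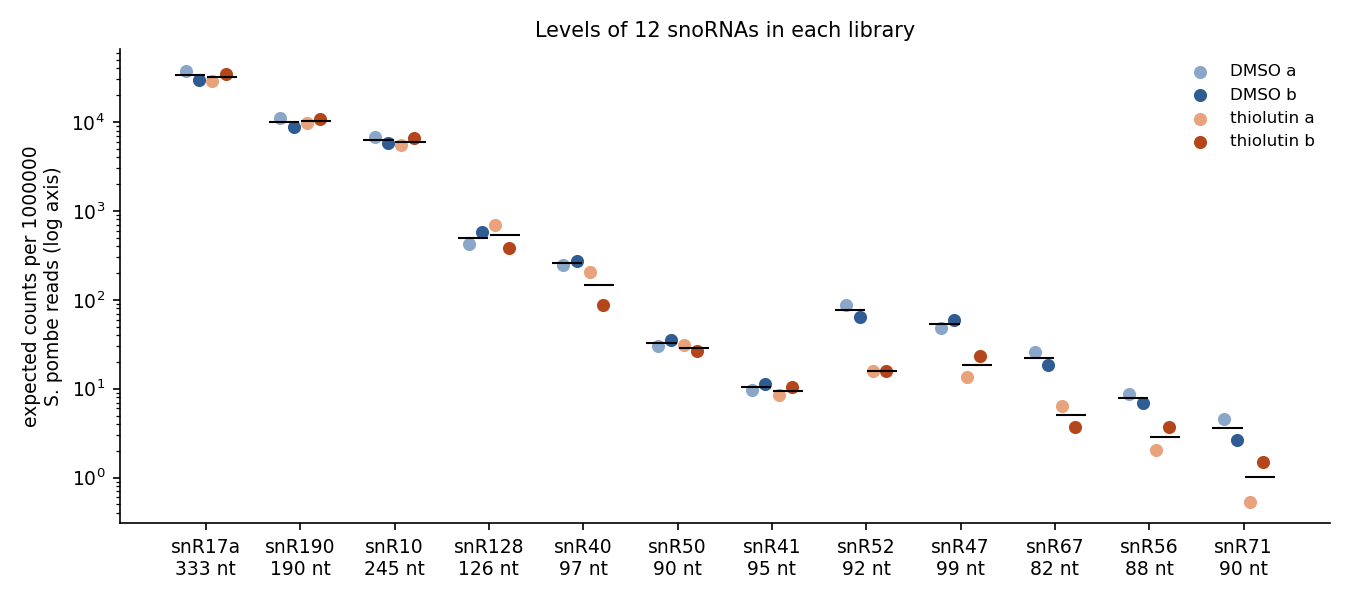
Expected counts per 1000000 S. pombe reads on a log axis for 12 snoRNAs in each library, with lengths below the names. Points are libraries and black lines group means (n = 2). snR17a, snR190, snR10, snR50 and snR41 lie at like levels in both groups, while both thiolutin libraries of snR52, snR47, snR67, snR56 and snR71 lie below both DMSO libraries.

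Not all short snoRNAs were called lower. The 3 of 34 shorter members called higher on the relative scale, beside 18.5% of all genes, were snR128, snR50 and snR41. snR50 is named here after its values were seen. Per spike-in read 33 of the 34 had a log2 fold change below 0, snR50 and snR41 among them. snR50, a 90-nt guide for 25S rRNA, was at 30.3 and 35.0 normalised counts in DMSO and at 30.8 and 26.8 in thiolutin, which overlap. Its log2 fold change was 0.91 ± 0.24 (SE, adjusted p = 0.0122, edgeR) relative to the typical gene and -0.18 ± 0.43 (adjusted p = 0.729, edgeR) per spike-in read. snR41, a 95-nt guide for 18S rRNA, was at 9.61 and 11.3 in DMSO and at 8.52 and 10.4 in thiolutin, with 0.87 ± 0.24 (adjusted p = 0.0167, edgeR) and -0.17 ± 0.42 (adjusted p = 0.728, edgeR). The guide stretch of snR50 has 12 pairs and that of snR41 has 11. Among members called lower per spike-in read, each stretch of snR47 and that of snR67 have 11. Each stretch of snR52 has 10, that of snR71 has 8 and that of snR51 has 16. Without DMSO a or without thiolutin a, 0 of the shorter members were called higher on the relative scale, and without thiolutin b 15 were.

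Against the longer snoRNAs of the same library, the shorter snoRNAs summed to 16.0 and 19.7 counts per 1000 counts of longer snoRNAs in DMSO a and b, to 17.9 in thiolutin a and to 9.38 in thiolutin b. This sum overlapped between the groups, with thiolutin b alone below the rest, and snR13 and snR128 made up much of it. Without the 3 longest of the shorter group, snR13, snR128 and snR68, the ratio was 6.73 and 8.42 in DMSO and 6.35 and 2.82 in thiolutin. Both thiolutin libraries then lay below both DMSO libraries (log2 ratio -0.83, two-sided exact permutation p = 0.33, the smallest possible). This separation appeared only with these 3 left out, a cut that was not planned. Against the longer snoRNAs, 78.4% of all genes tested were lower in both thiolutin libraries. U6 (snR6), a short spliceosomal RNA made by Pol III, was at 1.52 and 1.94 per 1000 in DMSO and at 2.04 and 0.874 in thiolutin, and tRNA genes were at 2.51 and 4.14 in DMSO and at 3.43 and 0.646 in thiolutin. Between the thiolutin libraries the median over all genes tested was 0.67 higher in b than in a on the log2 scale per spike-in read. The median longer snoRNA was 0.29 higher and the median shorter snoRNA 0.51 lower. The part of this difference in the calls was not tested. Shorter members were called lower per spike-in read with thiolutin a or thiolutin b left out, and longer members only with thiolutin b left out. The share of all genes in these fits was not taken.

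Counted against the longer snoRNAs of the same library, 25 of the 40 shorter members lay lower in both thiolutin libraries than in both DMSO libraries, 0 lay higher and 15 overlapped. For all 5527 genes tested, the same ratio was lower in 78.4% and higher in 2.99%. The 25 include all 14 members called per spike-in read and 5 of the 6 that were not tested. snR67 was at 156 and 135 per 1000000 longer counts in DMSO and at 48.7 and 22.9 in thiolutin, and snR56 at 53.2 and 50.5 in DMSO and at 15.6 and 22.9 in thiolutin. The calls per spike-in read depended on both DMSO libraries being present, and the cause of this was not tested.

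The polycistronic arrays hold 17 members, each array a single precursor that Rnt1 cuts between the snoRNAs. In the array snR190-snR128 on chromosome X neither RNA was called per spike-in read (0.05 and 0.10). In the array snR41-snR70-snR51 on chromosome XVI, snR41 and snR70 were at -0.17 and 0.03 and were not called, whereas snR51 fell by 1.20 (SE 0.42, adjusted p = 0.0125, edgeR). snR70 was at 1522 and 1452 normalised counts in DMSO and at 1385 and 1653 in thiolutin, snR51 at 28.6 and 20.6 in DMSO and at 10.3 and 11.2 in thiolutin.

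In the array snR57-snR55-snR61 on chromosome XII, the outer snR57 (3.99-fold lower) and snR61 (2.22-fold lower) were called and the middle snR55 (-0.32, adjusted p = 0.519, edgeR) was not. The outer members rest on few reads. snR57 had 13 and 24 counts in DMSO and 3 and 3 in thiolutin. snR61 had 41 and 48 in DMSO and 26 and 5 in thiolutin. snR55 was at 88.4 and 114 normalised counts in DMSO a and b and at 114 and 46.1 in thiolutin a and b, which overlap. Of the array of 7 on chromosome XIII, snR78 to snR72, 6 members were tested and snR78, snR77 and snR75 were called, with log2 fold changes per spike-in read from -2.07 (snR78) to -0.52 (snR76). The array on chromosome V held snR67, which fell, and snR53, which was not tested. Of the 15 array members tested, 4 were higher on the relative scale (snR190, snR128, snR41 and snR70) and 0 lower, beside 18.5% and 17.6% of all genes. Per spike-in read 7 were lower, beside 50.7% of all genes. Differences between members of an array were not tested.

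**Figure D4:**
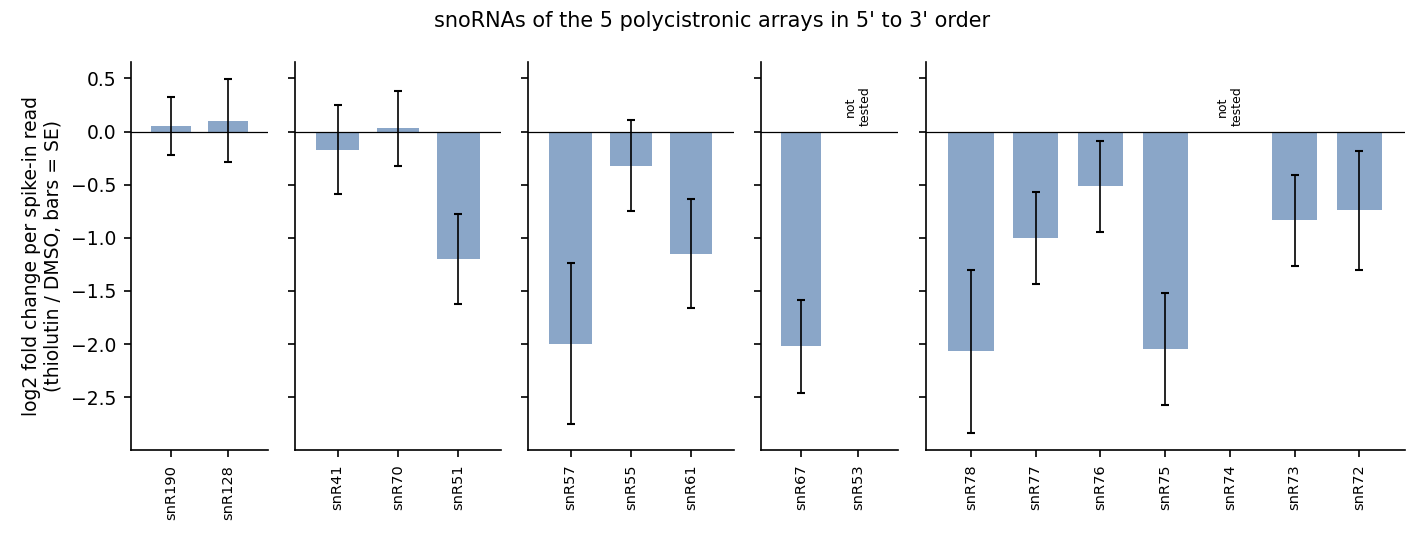
log2 fold change per spike-in read (thiolutin over DMSO) for the members of the 5 arrays in 5′ to 3′ order, with standard errors from edgeR. snR190, snR128 and snR70 lie between 0.03 and 0.10, the other members range from -0.17 to -2.07, and snR53 and snR74 were not tested.

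Intron-encoded snoRNAs are freed from the spliced intron of a host gene, so that snoRNA and mRNA come from the same transcript and can be compared within a library. snR191, an H/ACA snoRNA in an intron of NOG2, a GTPase gene of ribosome assembly, had 4919 and 4752 counts per 1000 NOG2 counts in DMSO and 30508 and 23177 in thiolutin. All thiolutin values were above all DMSO values, and the ratio was 2.46 ± 0.25 (SD of the 2 letter pairs) higher in log2. NOG2 itself fell by 1.46 relative to the typical gene (adjusted p = 5.97e-05, edgeR) and by 2.40 per spike-in read, while snR191 was at 0.02 per spike-in read. snR44, an H/ACA snoRNA in an intron of RPS22B, a gene of the small ribosomal subunit, had 4337 and 5319 counts per 1000 host counts in DMSO and 10020 and 8811 in thiolutin, a log2 ratio higher by 0.97 ± 0.34 (SD). The letter was not taken as a pairing, so that these SDs depend on how the libraries were matched. snR191 and snR44 are both longer snoRNAs. Against the summed longer snoRNAs, 78.4% of all genes tested were lower in both thiolutin libraries than in both DMSO libraries. A host gene lower against a longer snoRNA is therefore not particular to intron-encoded pairs. With 2 libraries a group, the exact permutation test of such a ratio cannot go below p = 0.33.

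The short intronic C/D snoRNAs did not share this separation of the groups. snR18, in EFB1, a translation elongation factor gene, had 77.5 and 70.4 counts per 1000 host counts in DMSO and 184 and 52.2 in thiolutin, which enclosed the DMSO values. snR24, in ASC1, had 1.54 and 1.85 in DMSO and 2.71 and 0.846 in thiolutin, which also enclosed them. snR39, in RPL7A, had 24.0 and 17.5 in DMSO and 17.7 and 6.40 in thiolutin. The median change over the 5 tested pairs was 0.41, and it was 1.06 without thiolutin b and -0.50 without thiolutin a. snR38 (TEF4), snR54 (IMD4) and snR59 (RPL7B) had at most 8 counts in any library and are given no ratio, though IMD4 itself fell by 1.21 (adjusted p = 1.44e-04, edgeR) relative to the typical gene.

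**Figure D5:**
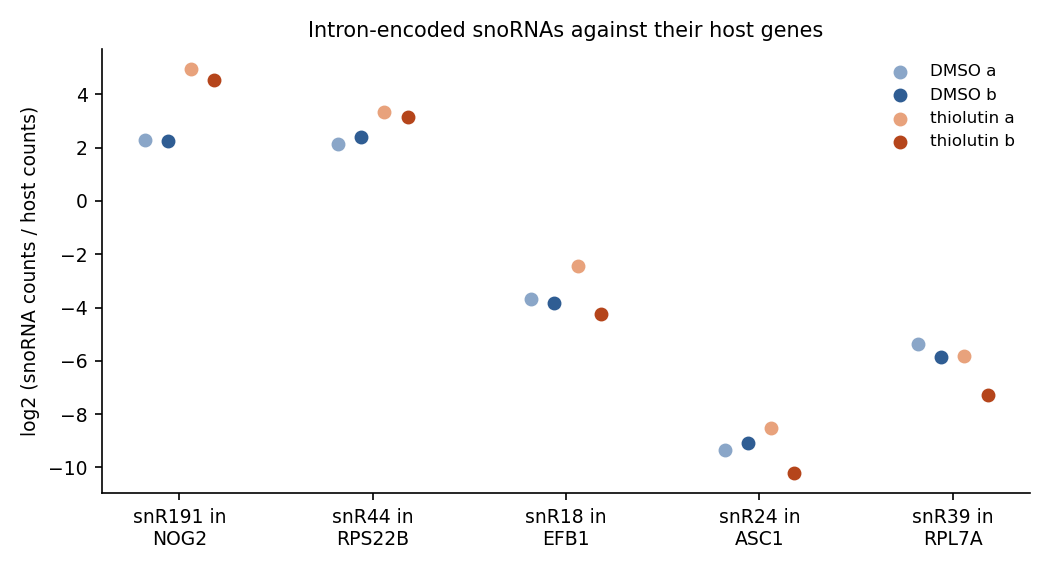
log2 of snoRNA counts over host gene counts in each of the 4 libraries for the 5 tested intron-encoded snoRNAs. For snR191 and snR44 both thiolutin libraries lie above both DMSO libraries, and for snR18 and snR24 they lie on either side of them.

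Of 34 listed genes for snoRNP proteins and their assembly, all tested, 6 were higher and 6 lower relative to the typical gene, beside 18.5% and 17.6% of all genes, and their median was -0.07. Without DMSO a or DMSO b, 2 were higher and 2 lower. Per spike-in read 18 were lower, beside 50.7% of all genes, and 0 higher (0 at an unadjusted p under 0.05 in edgeR). On the relative scale, NOP1, the methyltransferase gene of the C/D core, was at 0.51 ± 0.20 (SE, adjusted p = 0.070, edgeR). NOP56 was at 0.40, NOP58 at 0.09 and SNU13 at -0.18, and none of the C/D core was called on it. Of the H/ACA core, on the same scale, CBF5, the pseudouridine synthase gene, was higher by 0.69 ± 0.16 (adjusted p = 0.00632, edgeR) and GAR1 by 0.68 ± 0.16. NHP2 was lower (-0.53 ± 0.15, adjusted p = 0.0155, edgeR), and NOP10 was at -0.03. Per spike-in read 1 gene of the C/D core, SNU13 (-1.23, adjusted p = 0.0106, edgeR), was lower. So were 2 of the H/ACA core, NHP2 (-1.52) and NOP10 (-0.998), beside 50.7% of all genes.

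Of the 10 assembly factors, RVB1 (0.87) and RVB2 (0.45), which code for the ATPases of the R2TP pathway, were higher relative to the typical gene. NAF1 (-1.02), SHQ1 (-0.998) and HIT1 (-1.07) were lower on that scale, with adjusted p of 0.0227, 0.00355 and 0.0275 (edgeR). NAF1 and SHQ1 act in the assembly of H/ACA particles and HIT1 in that of C/D particles. Of the 16 genes for transcription termination and RNA processing, MTR4 (1.09), the helicase gene of nuclear RNA surveillance, and LHP1 (0.61), the La protein gene, were higher. AIR1 (-1.93), a TRAMP subunit gene, and TGS1 (-1.14, adjusted p = 0.0403, edgeR), which trimethylates the snoRNA cap, were lower, again on the relative scale. In thiolutin b NAF1 had 9 counts, HIT1 8 and TGS1 3, so that these calls rest on few reads. NRD1, NAB3, SEN1 and RNT1 were not called on the relative scale, with log2 fold changes of -0.31 to 0.17. Per spike-in read NAB3 (-1.08), SEN1 (-1.35) and RNT1 (-1.06) were lower, beside 50.7% of all genes, and NRD1 was not called.

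Other stable RNAs are given beside the longer snoRNAs, which ranged from 0.68 to 1.15 on the relative scale and from -0.30 to 0.21 per spike-in read. Of 6 spliceosomal snRNAs, 5 were higher relative to the typical gene (0.79 to 0.93) and 0 were called per spike-in read (edgeR, 0 at an unadjusted p under 0.05), from -0.32 (snR6) to -0.01 (LSR1, the U2 RNA). SCR1, the RNA of the signal recognition particle and a Pol III transcript as snR52 is, was at 1.25 and at 0.33 per spike-in read. RPR1, the RNase P RNA and also made by Pol III, was at 0.90 and -0.07, NME1, the RNase MRP RNA, at 0.93 and -0.06, and TLC1, the telomerase RNA, at 1.19 and 0.28. All 4 were higher relative to the typical gene and none was called per spike-in read (edgeR).

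Stretches before the genes were searched for ACCCTAA, the binding motif of the factor Tbf1, on both strands. The motif was in the 250 bases before 5 of 55 snoRNA transcription units (independent genes and first genes of arrays), or 9.09%, and before 105 of 6021 protein-coding genes, or 1.74%. It stood before 3 of 33 longer and 2 of 22 shorter first members. These matches are given as a description.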

How the data were processed

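Per the labels and the study's methods, the authors mapped single-end stranded reads to sacCer3 with STAR 2.7.3a, estimated reverse-stranded expression with RSEM 1.3.1 and counted S. pombe reads with Bowtie 1.2.2. The deposited tables hold expected counts, not normalized, and TPM, which the authors' software scales by gene length and library total. Deposited lengths equalled the R64 gene for 74 of 76 snoRNAs, the exceptions being the intron-containing snR17a and snR17b.

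Expected counts were rounded to whole numbers, filtered with filterByExpr, and compared between 2 thiolutin and 2 DMSO libraries in edgeR 4.0.16 (R 4.3.3) by the quasi-likelihood test over all genes, with TMM factors, or with library sizes set to the S. pombe reads listed by the study and no TMM factors. Standard errors were derived from the fold change and its F statistic. DESeq2 1.42.0 served as an alternative. The code was tested on simulated data.

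The members and lists were chosen with earlier results of these data known. Named are the cleavage snoRNAs, snR52, intronic and array members, the 5 highest and 5 lowest per spike-in read, the 5 with the highest TPM, members called per spike-in read and core protein genes, with exceptions stated. Over snoRNAs the replicates differed beyond counting noise (chi-square over its degrees of freedom, 77.6 for DMSO and 95.1 for thiolutin).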

Additional observations from a re-analysis of the deposited data

How the results depend on the processing

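The median log2 fold changes of the snoRNAs kept their direction under every alternative run, from 0.59 to 1.00 on the relative scale and from -0.37 to -0.06 per spike-in read. Calls depended more on the settings. On the relative scale 39 were higher and 2 lower. With at least 50 counts in every library these were 24 and 1, with DESeq2's Wald test 1 was lower (35 higher), and at an adjusted p under 1e-05 there were 0 and 0. Leaving out a library gave 4 (without DMSO a) to 51 (without thiolutin b) higher and 1 to 11 (without thiolutin a) lower. Leaving out DMSO b gave 9 higher. Per spike-in read 14 were lower. With 25S and 18S rRNA reads as library size 23 were, with the replicate block 5, and at 1e-05 0. Leaving out a library gave 0 (either DMSO library) to 24 (without thiolutin b) lower and 0 to 2 higher. Of the snoRNP protein genes, 2 to 8 were higher and 2 to 6 lower with a library left out, 2 and 2 without either DMSO library. The causes were not tested. The share of all genes called was not taken with a library left out or in the other settings, apart from 1e-05, where it is given above. The filter of at least 50 counts also changed which members were tested. Libraries of the same letter deviated together little (r = 0.03 over all genes, -0.14 over snoRNAs), so that the letter was not taken as a pairing. Depth limits the shorter snoRNAs, whose median count was 13.5 in thiolutin b.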

Other observations

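snR80, an H/ACA snoRNA of 171 nt, was less even between libraries than the other longer members. It was at 262 and 399 normalised counts in DMSO a and b and at 170 and 508 in thiolutin a and b, higher in both b libraries, with a log2 difference between b and a of 0.61 in DMSO and 1.58 in thiolutin. It was singled out after its values were seen.

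snR59, listed with 1 and 2 counts in DMSO and 0 and 2 in thiolutin, and snR39, with 46, 69, 34 and 5, face the same nucleotide of 25S rRNA. Their host genes had 455, 854, 338 and 122 counts (RPL7B) and 1915, 3954, 1925 and 781 counts (RPL7A), in the same order of libraries. With so few counts of snR59, the difference between the snoRNAs was not compared with that between the hosts.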
